A study of Mus musculus with 6 samples.

Results

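Heparan sulfate is a sulfated sugar chain built on proteoglycan core proteins, and its genes were followed here as 30 enzyme genes and 12 core protein genes in mouse sciatic nerve. The members were all probes whose gene name on the array belonged to the sulfotransferase, exostosin, xylosyltransferase and galactosyltransferase genes of heparan sulfate assembly, the sulfatases and heparanases that trim it, and the syndecan, glypican, agrin and perlecan cores. This rule used names only, and it found 58 probes for 42 genes among 39429 non-control probes of the array. After the filter on dim probes 32 of the 42 genes could be tested, and 10 could not.

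The 6 arrays were hybridised with total RNA from sciatic nerves of mice at 1 month of age, on the background that the labels spell C56 BL6. The OGT_SCKO group held 3 independent pools from mice knocked out for OGT, the enzyme that attaches N-acetylglucosamine to serine and threonine residues of proteins in the nucleus and cytoplasm. The Ctrl group held 3 independent pools from littermates. The series title concerns OGT activity in Schwann cells and the repair of myelin, and the comparison asks what loss of OGT changed in the RNA of the nerve. No source used here names the Cre driver, the altered allele or how many animals made up a pool. Each pool counts as 1 sample. Each RNA was labelled with Cy5 and read in 1 colour. A level below is the log2 processed signal minus the 75th percentile of the same array, so 0 stands for a signal equal to that percentile, and levels are set against each other only within a probe.

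Assembly of heparan sulfate begins in the Golgi, where xylosyltransferases (Xylt1, Xylt2), galactosyltransferases (B4galt7, B3galt6) and a glucuronyltransferase (B3gat3) build a short linker on a serine of a core protein. Exostosins then extend the chain with alternating glucuronic acid and N-acetylglucosamine, and N-deacetylase/N-sulfotransferases, an epimerase and O-sulfotransferases modify it, which creates the sites that growth factors, laminins and protease inhibitors bind. In peripheral nerve, agrin and perlecan lie in the basal lamina around Schwann cells, syndecans and glypicans carry the chains on cell surfaces, and UDP-N-acetylglucosamine is the donor for both OGT and the exostosins.

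The 250 bases upstream of the RefSeq transcription starts of the 4 genes that passed the test below are shown so that the places described can be read directly; they come from RefSeq, build GRCm38.p6, are written 5′ to 3′ on the strand of the gene, and carry capitals where a script found GGAATG (the core of a TEAD site) or GGGCGG (a GC box) on either strand, with overlapping matches counted.
Hs3st5, chr10:36506557-36506806, plus strand: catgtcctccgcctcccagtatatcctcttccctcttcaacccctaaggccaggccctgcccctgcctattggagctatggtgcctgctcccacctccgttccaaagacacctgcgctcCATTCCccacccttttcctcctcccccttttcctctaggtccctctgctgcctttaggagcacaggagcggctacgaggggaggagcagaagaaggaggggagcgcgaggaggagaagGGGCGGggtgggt
Hs3st1, chr5:39644632-39644881, minus strand: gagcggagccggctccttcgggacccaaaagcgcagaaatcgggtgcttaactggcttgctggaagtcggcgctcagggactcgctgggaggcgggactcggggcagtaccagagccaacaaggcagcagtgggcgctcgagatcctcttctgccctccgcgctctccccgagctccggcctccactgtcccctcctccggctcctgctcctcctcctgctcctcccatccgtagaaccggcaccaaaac
Agrn, chr4:156197489-156197738, minus strand: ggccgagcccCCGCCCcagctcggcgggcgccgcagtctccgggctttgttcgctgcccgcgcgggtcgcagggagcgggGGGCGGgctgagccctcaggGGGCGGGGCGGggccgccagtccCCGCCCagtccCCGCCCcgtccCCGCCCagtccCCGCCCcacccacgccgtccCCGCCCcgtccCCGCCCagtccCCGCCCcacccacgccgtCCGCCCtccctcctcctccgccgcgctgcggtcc
Sdc4, chr2:164443189-164443438, minus strand: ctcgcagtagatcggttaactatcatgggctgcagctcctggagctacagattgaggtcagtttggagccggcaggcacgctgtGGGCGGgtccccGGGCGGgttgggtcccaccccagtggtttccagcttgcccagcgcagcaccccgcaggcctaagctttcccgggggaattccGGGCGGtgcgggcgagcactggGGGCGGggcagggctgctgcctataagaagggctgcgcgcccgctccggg

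The Hs3st5 window held 1 TEAD match and 1 GC box, the Agrn window 12 GC boxes, the Sdc4 window 4 GC boxes, and the Hs3st1 window none of the letters searched. RefSeq gives Agrn another start at chr4:156186260-156186509, also on the minus strand, with 2 GC boxes. Over 37 upstream windows of 32 member genes, GGGCGG was present in 24 (64.9%), against 32.7% of 32851 windows of all genes. The median GC content was 64.8% in the member windows and 52.4% in all windows. GGAATG was present in 5 of the 37 member windows (13.5%), against 12.6% of all. The AP-1 motif TGANTCA, with N for any base, was in 0 member windows, against 6.75% of all. A match here is a run of letters and not a measured binding site.

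The arrays had 75th percentiles of 2749 (Ctrl 2) to 6136 (OGT_SCKO 2) processed signal units. Between 59.0% (Ctrl 2) and 65.2% (OGT_SCKO 2) of their probes were well above background. Pools of one group correlated at 0.979 to 0.995 over the genes tested, and pools of different groups at 0.949 to 0.976. Slide 1 held all 3 OGT_SCKO pools and Ctrl 2, and slide 2 held Ctrl 1 and Ctrl 3, so a fit with slide as a block compares the OGT_SCKO pools with Ctrl 2 alone. Ogt itself averaged −0.97 ± 0.07 in OGT_SCKO pools and 0.31 ± 0.18 in Ctrl pools (SD, n = 3 each), which is 41.3% of the Ctrl signal (log2 fold change −1.28, SE 0.13, limma adjusted p = 0.00117; 0.0537 within slide 1). Defining markers of Schwann cells, such as S100b at 4.55 ± 0.18 in OGT_SCKO pools and 5.22 ± 0.05 in Ctrl pools, were well above background on every array. Because the tissue was taken whole, fewer cells of a type and less RNA per cell cannot be told apart.

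Of the 32 heparan sulfate genes tested, 4 passed at an adjusted p under 0.05 (12.5%), against 23.3% of all 19058 genes tested. The 3-O-sulfotransferases Hs3st5 and Hs3st1 and the core protein gene Agrn were lower in OGT_SCKO nerves, and the syndecan gene Sdc4 was higher. Hs3st5 entered the test only through its Ctrl arrays. Where probes had to be above background on all 6 arrays, 3 of 31 members passed (9.68%), against 22.6% of all genes. By direction, 1 of 32 members was higher, against 11.2% of all genes, and 3 of 32 were lower, against 12.1%. The members' median log2 fold change was 0.08 and that of all genes was −0.07. Past the test with at least a 2-fold change, 0 members were higher, against 3.43% of all genes, and 1 was lower, against 3.27%. A log2 change of 0.5 or more in either direction was measured for 5 members (15.6%), against 30.4% of all genes, and the median size of the change was 0.29 in the members and 0.32 in all genes. With leave-one-out fits the number of members that passed ranged between 1 (without Ctrl 1, without Ctrl 3 or without OGT_SCKO 3) and 6 (without OGT_SCKO 1), with 2 without Ctrl 2 or without OGT_SCKO 2. In the fit with a slide block 1 of 32 members passed, against 6.43% of all genes. That member was Hs3st5, with OGT_SCKO signals below background. At an unadjusted limma p under 0.05 there were 11 members (34.4%), against 38.7% of all genes. The groups did not overlap for 15 of the 32 members (8 with OGT_SCKO higher, 7 with OGT_SCKO lower), against 45.7% of all genes. An exact two-sided permutation test of 3 against 3 pools cannot give a p below 0.1.

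**Figure D1:**
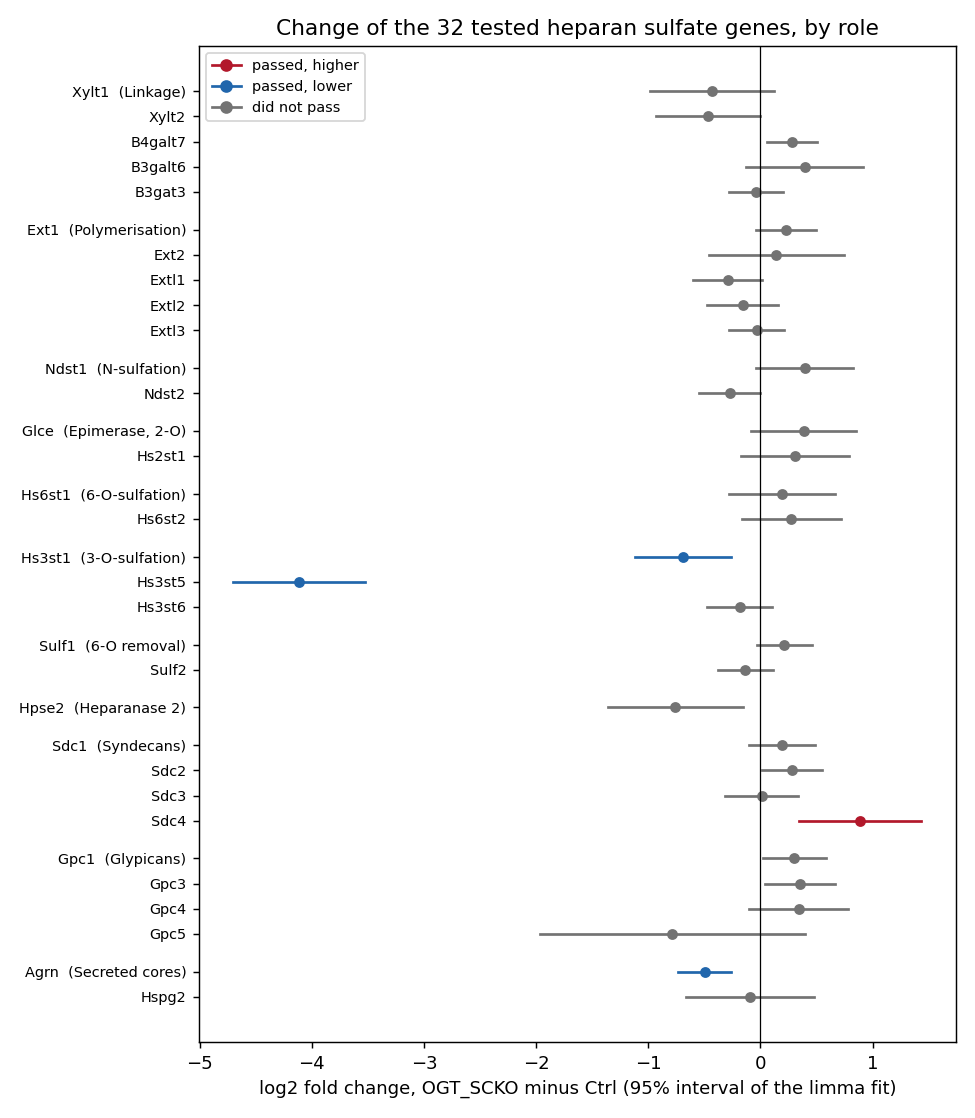
The horizontal axis gives the log2 fold change (OGT_SCKO minus Ctrl) of each of the 32 tested heparan sulfate genes, with the 95% interval of the limma fit as a line, and genes run down the page by role. Hs3st5 is drawn at its measured −4.11, but its OGT_SCKO signals were not well above background, so its place and interval are not a measured size (−1.81 with dim values raised to the floor). Hs3st1 and Agrn are the other genes marked lower, Sdc4 is marked higher, and the 28 grey genes did not pass.

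Among the linkage enzymes, 0 of 5 genes passed limma's test in either direction (2 at an unadjusted p under 0.05), with a median log2 fold change of −0.04. The shares of all genes were 23.3% and, at an unadjusted p under 0.05, 38.7%. B4galt7, which adds the first galactose of the linker, was at −0.99, −0.93 and −0.96 in OGT_SCKO pools, against −1.24, −1.27 and −1.22 in Ctrl pools. All 3 OGT_SCKO pools were above all 3 Ctrl pools, with little spread in either group. The log2 fold change was 0.28 (95% interval 0.06 to 0.50, limma adjusted p = 0.0748), and it passed with quantile normalisation (0.045) and with the deposited values (0.0417). Its other kept probe gave 0.03. Xylt2, one of the enzymes that place the first xylose, was at 0.17, −0.52 and −0.08 in OGT_SCKO pools, against 0.24, 0.50 and 0.23 in Ctrl pools. OGT_SCKO 2 was the lowest pool, and the groups were separated only narrowly. The log2 fold change was −0.47 (interval −0.93 to −0.0038, limma adjusted p = 0.127; −0.62 and 0.0482 without OGT_SCKO 1), and −0.04 for its other kept probe. For the rest of the linkage set the groups overlapped: the log2 fold change was −0.43 for Xylt1 (interval −0.98 to 0.12), 0.39 for B3galt6 (−0.13 to 0.91) and −0.04 for B3gat3 (−0.29 to 0.20), none past the test.

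Of the chain polymerising exostosins, 0 of 5 passed limma's test (median log2 fold change −0.03), against 23.3% of all genes. At an unadjusted p under 0.05 there were 0, against 38.7%. Ext1, a subunit of the polymerase that lengthens the chain, was at 1.18, 0.98 and 1.20 in OGT_SCKO pools, against 0.80, 0.97 and 0.91 in Ctrl pools. OGT_SCKO 2 and Ctrl 2 lay side by side, and the groups did not overlap. The log2 fold change of 0.22 had an interval of −0.04 to 0.49 (limma adjusted p = 0.186). Extl1, an exostosin-like transferase, was at −2.73, −2.36 and −2.57 in OGT_SCKO pools, against −2.19, −2.35 and −2.24 in Ctrl pools. OGT_SCKO 2 again lay next to Ctrl 2, and the log2 fold change was −0.29 (interval −0.60 to 0.01, limma adjusted p = 0.143). The polymerase partner Ext2 (0.14, interval −0.46 to 0.74), Extl2 (−0.16, interval −0.48 to 0.16) and Extl3 (−0.03, interval −0.28 to 0.21) had overlapping groups.

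The N-deacetylase/N-sulfotransferases remove the acetyl group from N-acetylglucosamine and put a sulfate in its place, the step on which most later modifications depend. Of the 4 genes, 2 could be tested and 0 passed limma's test, against 23.3% of all genes. At an unadjusted p under 0.05 there was 1, against 38.7%. Ndst2 was at −0.31, −0.55 and −0.31 in OGT_SCKO pools, against −0.17, −0.11 and −0.06 in Ctrl pools. Every OGT_SCKO pool was below every Ctrl pool, with a log2 fold change of −0.27 (interval −0.55 to −0.0025, limma adjusted p = 0.127). Ndst1 was at 0.70, 1.23 and 0.93 in OGT_SCKO pools, against 0.71, 0.31 and 0.66 in Ctrl pools. OGT_SCKO 1 fell within the range of the Ctrl pools, so the groups overlapped, and the log2 fold change was 0.39 (interval −0.04 to 0.82, limma adjusted p = 0.156). The other kept probe of Ndst1 gave −0.10, a change of the opposite sign, so the direction of Ndst1 differed between its probes. Ndst3 was above background on 1 OGT_SCKO array and 0 Ctrl arrays, and Ndst4 on none.

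Glce, the epimerase that turns glucuronic into iduronic acid, and Hs2st1, the 2-O-sulfotransferase that acts mostly on that iduronic acid, did not pass, also at an unadjusted limma p under 0.05. Glce was at −1.07, −0.55 and −1.15 in OGT_SCKO pools, against −1.06, −1.47 and −1.40 in Ctrl pools. OGT_SCKO 2 was highest and Ctrl 1 lay above OGT_SCKO 1, so the groups overlapped (log2 fold change 0.38, interval −0.09 to 0.86, limma adjusted p = 0.194). For Hs2st1 the log2 fold change was 0.31 (interval −0.18 to 0.79). The 6-O-sulfotransferases Hs6st1 (0.19, interval −0.28 to 0.66) and Hs6st2 (0.27, interval −0.17 to 0.71) likewise had overlapping groups, and Hs6st3 was above background on no array.

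The 3-O-sulfotransferases add the rarest sulfate of the chain. Of the 3 genes tested 2 passed, both lower, against 12.1% of all genes. Of these, Hs3st5 entered the test only through its Ctrl arrays, and Hs3st1 lost its call in 9 of 19 alternatives. Hs3st5, whose enzyme can make antithrombin-binding sites, was at −7.28, −8.08 and −7.73 in OGT_SCKO pools, against −3.63, −3.87 and −3.25 in Ctrl pools. The probe lies at chr10:36553975-36554034 on the plus strand of mm9, the build of the array's coordinates. It was well above background on all 3 Ctrl arrays and on 0 OGT_SCKO arrays, so its signal in OGT_SCKO nerves is only bounded from above. The measured means were −7.70 ± 0.40 in OGT_SCKO pools and −3.58 ± 0.31 in Ctrl pools (SD, n = 3 each). Set at the lowest signal well above background on each OGT_SCKO array, Hs3st5 would be 3.51-fold lower in OGT_SCKO nerves. That signal is not a limit for every probe. Gpc6 lay above it on all 3 OGT_SCKO arrays, yet was well above background on 2. The fold is thus not a strict lower bound. The limma adjusted p was 0.000224 for a log2 fold change of −4.11, both from measured values that lie below background in OGT_SCKO pools. Raising dim values to each array's lowest well-above-background signal, a setting added once the data had been seen, gave −1.81 on the log2 scale. All 3 OGT_SCKO values are then those array floors. The limma adjusted p of 0.00393 thus rests on the spread of the floors, not of Hs3st5, in OGT_SCKO pools. The measured difference was −3.83 on slide 1 (limma adjusted p = 0.0214) and with a slide block (0.00568); both set the below-background OGT_SCKO values against Ctrl 2 as the sole Ctrl pool, so neither is a measured size. With normexp background correction it was −1.79 and did not pass (limma adjusted p = 0.0901).

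Hs3st1, which encodes the main enzyme for antithrombin-binding sites in mouse tissue, was at −1.91, −2.15 and −1.95 in OGT_SCKO pools, against −1.17, −1.68 and −1.09 in Ctrl pools. The groups did not overlap, and Ctrl 2, the Ctrl pool on slide 1, lay closest to the OGT_SCKO pools. The means were −2.01 ± 0.13 in OGT_SCKO pools and −1.31 ± 0.32 in Ctrl pools (SD, n = 3 each), 1.62-fold lower in OGT_SCKO nerves (log2 fold change −0.69, SE 0.18, limma adjusted p = 0.036). The call ended with slide as a block (−0.32, limma adjusted p = 0.27) and within slide 1 (0.409), with normexp (0.0944), and without Ctrl 1 (0.115), Ctrl 3 (0.121), OGT_SCKO 2 (0.0686) or OGT_SCKO 3 (0.102). Hs3st6 was at −3.90 to −3.84 in OGT_SCKO pools and −3.87 to −3.53 in Ctrl pools, with overlapping groups (log2 fold change −0.19, interval −0.47 to 0.10). The remaining genes of the family, Hs3st2, Hs3st3a1, Hs3st3b1 and Hs3st4, were above background on no array.

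**Figure D2:**
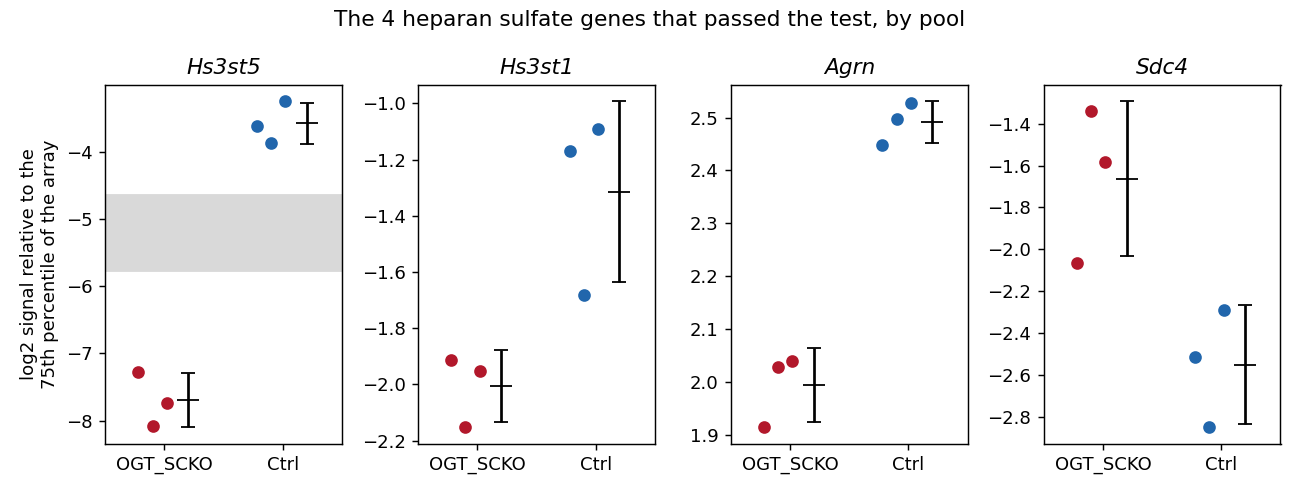
Each panel gives 1 of the 4 genes that passed, with the log2 signal relative to the 75th percentile of the array on the vertical axis, a point for each pool, OGT_SCKO left and Ctrl right, and a bar for the mean and SD. In the Hs3st5 panel the grey band spans the lowest log2 values well above background over the 6 arrays (−5.77 to −4.64), with the OGT_SCKO pools below it and the Ctrl pools above it. The groups do not overlap in any panel.

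Chain editing outside the cell had 0 genes past limma's test among the 3 tested, against 23.3% of all genes. At an unadjusted p under 0.05 there was 1 (Hpse2), against 38.7%. Sulf1, a sulfatase that removes 6-O-sulfate at the cell surface, was at 2.31, 2.31 and 2.34 in OGT_SCKO pools, against 2.00, 2.11 and 2.22 in Ctrl pools. The groups did not overlap, and the log2 fold change was 0.21 (interval −0.03 to 0.46, limma adjusted p = 0.175), close to the 0.25 of its other kept probe. Sulf2 had overlapping groups (−0.13, interval −0.38 to 0.11). Hpse2, a heparanase relative without chain-cutting activity, was at −3.43, −4.32 and −3.73 in OGT_SCKO pools, against −3.30, −2.77 and −3.13 in Ctrl pools. OGT_SCKO 2 was lowest and OGT_SCKO 1 lay close to Ctrl 1. The log2 fold change was −0.76 (interval −1.36 to −0.16, limma adjusted p = 0.074), and Hpse2 passed without OGT_SCKO 1 (−0.96, 0.0338). Hpse, the active heparanase, was above background on 2 OGT_SCKO and 2 Ctrl arrays and was not tested.

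Of the syndecans, the transmembrane cores, 4 were tested and 1 passed, against 23.3% of all genes. Sdc4, a broadly expressed syndecan of focal adhesions, was at −2.07, −1.34 and −1.59 in OGT_SCKO pools, against −2.52, −2.85 and −2.29 in Ctrl pools. The groups did not overlap, and the probe lies at chr2:164251211-164251270 on the minus strand of mm9. The means were −1.66 ± 0.37 in OGT_SCKO pools and −2.55 ± 0.28 in Ctrl pools (SD, n = 3 each), 1.85-fold higher in OGT_SCKO nerves (log2 fold change 0.89, SE 0.23, limma adjusted p = 0.0346). The call ended with slide as a block (1.19, limma adjusted p = 0.0782) and within slide 1 (0.167), and without Ctrl 1 (0.093), Ctrl 2 (0.101), Ctrl 3 (0.0594), OGT_SCKO 2 (0.0595) or OGT_SCKO 3 (0.114).

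Sdc2, a syndecan of mesenchymal cells, was at 2.61, 2.64 and 2.41 in OGT_SCKO pools, against 2.36, 2.20 and 2.26 in Ctrl pools. The groups were separate by a small margin, with a log2 fold change of 0.28 (interval 0.01 to 0.55, limma adjusted p = 0.119). Sdc3, the syndecan known from rat Schwann cells, had overlapping groups and a log2 fold change of 0.01, with an interval of −0.31 to 0.34. For Sdc1 the log2 fold change was 0.19 (interval −0.11 to 0.49).

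The glypicans are held in the membrane by a lipid anchor, and 0 of the 4 tested passed limma's test, against 23.3% of all genes. At an unadjusted p under 0.05 there were 2, against 38.7%. The glypican median log2 fold change was 0.32. Gpc3 was at 1.70, 1.98 and 1.66 in OGT_SCKO pools, against 1.45, 1.53 and 1.30 in Ctrl pools. Gpc1, known in rat Schwann cells as a binding partner of type V collagen, was at 1.60, 1.91 and 1.73 in OGT_SCKO pools, against 1.39, 1.45 and 1.49 in Ctrl pools. OGT_SCKO 2 was the highest pool for both, and neither gene's groups overlapped. The log2 fold changes were 0.36 for Gpc3 (interval 0.04 to 0.67, limma adjusted p = 0.0956) and 0.30 for Gpc1 (interval 0.02 to 0.58, limma adjusted p = 0.107). Gpc4 had separate groups as well (0.34, interval −0.10 to 0.78). Gpc5 had overlapping groups and the widest interval of the members (−0.79, interval −1.96 to 0.39), with OGT_SCKO 2 at −4.14 against −2.11 and −2.45 in OGT_SCKO 1 and 3 and −2.15, −2.08 and −2.11 in Ctrl pools. Gpc2 was above background on no array, and Gpc6 on 2 OGT_SCKO and 2 Ctrl arrays.

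Of the secreted cores, both were tested and 1 passed, against 23.3% of all genes. Agrn, the basal lamina proteoglycan that at the neuromuscular junction acts through Lrp4 and MuSK, was at 1.91, 2.03 and 2.04 in OGT_SCKO pools, against 2.45, 2.50 and 2.53 in Ctrl pools. The 2 groups were narrow and well apart, with the probe at chr4:155539415-155539474 on the minus strand of mm9. The means were 1.99 ± 0.07 in OGT_SCKO pools and 2.49 ± 0.04 in Ctrl pools (SD, n = 3 each), 1.41-fold lower in OGT_SCKO nerves (log2 fold change −0.50, SE 0.10, limma adjusted p = 0.0147). Its other kept probe gave −0.78 (limma adjusted p over probes 0.0719) but was above background on 1 of 3 OGT_SCKO arrays. The call ended with slide as a block (−0.50, limma adjusted p = 0.121) and within slide 1 (0.264), and without Ctrl 1 (0.0511), Ctrl 2 (0.0562), Ctrl 3 (0.0704) or OGT_SCKO 3 (0.0598).

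Hspg2 encodes perlecan, another large basal lamina core. It was at 5.98, 5.18 and 5.75 in OGT_SCKO pools, against 5.50, 6.04 and 5.66 in Ctrl pools, and the groups overlapped. Its log2 fold change was −0.09, with an interval of −0.67 to 0.48, and its other kept probe gave 0.30.

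**Figure D3:**
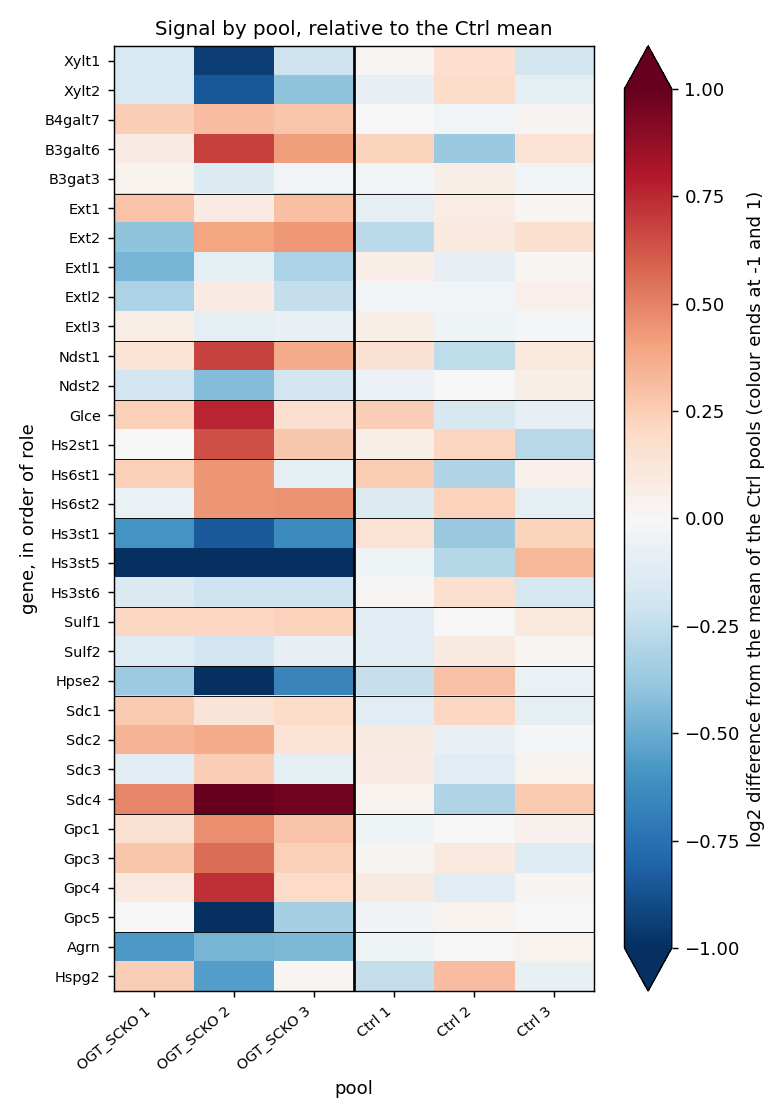
Columns are the 6 pools, OGT_SCKO left of the line and Ctrl right of it, rows are the 32 tested heparan sulfate genes in order of role, and colour gives the log2 difference from the Ctrl mean, with the scale ending at −1 and 1. OGT_SCKO 2 was the pool farthest from the other 2 of its group for 20 of the 32 members.

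Within OGT_SCKO, replicate 2 was the pool farthest from the other 2 for 20 of 32 members (62.5%), against 54.0% of all genes. Within Ctrl, replicate 2 was farthest for 15 of 32 (46.9%), against 48.1% of all genes. OGT_SCKO 2 and Ctrl 2 lay at opposite ends of the 6 pools for 16 of 32 members (50%), against 36.1% of all genes. These 16 include Sdc4, which passed the test, and not Hs3st5, Hs3st1 or Agrn. Of the 6 arrays, OGT_SCKO 2 had the highest 75th percentile (6136) and Ctrl 2 the lowest (2749). The part of array intensity in this pattern was not tested. Among the 7 genes with several kept probes, the signs differed for Hspg2 and Ndst1.

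Genes that supply or use the same building blocks were read from lists by role. Each count stands beside the share of all genes tested, 11.2% higher and 12.1% lower, and no list was tested as a set. Of 11 genes for nucleotide sugar supply, 3 were higher and 2 lower, with a list median log2 fold change of 0.21. Uap1l1, a relative of the enzyme that makes UDP-N-acetylglucosamine, was 1.43-fold higher (limma adjusted p = 0.0178). The UDP-sugar transporters Slc35b4 and Slc35d2 were 1.58-fold lower (limma adjusted p = 0.00649) and 1.38-fold lower (0.0261). The UDP-galactose transporter Slc35a2, named after its values were seen, was higher by 0.66 on the log2 scale (limma adjusted p = 0.0414). Its call was not examined under the alternatives. With slide as a block, Uap1l1 (0.139), Slc35b4 (0.0885) and Slc35d2 (0.171) no longer passed, and Uap1l1 and Slc35d2 also did not pass without any 1 of Ctrl 1, Ctrl 2, Ctrl 3 or OGT_SCKO 3 (0.0609 to 0.0995). Slc35d2 also lost its call with normexp (0.229) and with median scaling (0.0673).

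Of 9 genes for supply of the sulfate donor PAPS, 1 was higher and 0 were lower (median 0.00053). The shares of all genes were 11.2% and 12.1%. Slc35b2, which carries PAPS into the Golgi, was at 2.74 ± 0.06 in OGT_SCKO pools and 2.26 ± 0.12 in Ctrl pools, 1.40-fold higher (limma adjusted p = 0.0243). Its call ended with slide as a block (0.117), or without Ctrl 1 (0.0908), Ctrl 2 (0.0873) or OGT_SCKO 3 (0.101). Fam20b, the kinase that phosphorylates the linker xylose, was 1.87-fold lower (limma adjusted p = 0.0472), and Pxylp1, the phosphatase that removes that phosphate, had a log2 fold change of 0.34 (0.0576). Fam20b passed without OGT_SCKO 2 but not without any of the other 5 pools (limma adjusted p 0.0501 to 0.15), nor with slide as a block (0.309), normexp (0.0574) or median scaling (0.0671).

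In the lysosomal breakdown list 1 of 11 genes was higher and 1 lower, against 11.2% and 12.1% of all genes. Sumf1, which activates sulfatases, was 1.92-fold higher, at 0.40 ± 0.13 in OGT_SCKO pools and −0.54 ± 0.11 in Ctrl pools (limma adjusted p = 0.0031; 0.0945 within slide 1). Naglu, the lysosomal N-acetylglucosaminidase, was 1.33-fold lower (limma adjusted p = 0.044) and lost its call with slide as a block (0.16), with normexp (0.0509), with median scaling (0.067), or without any 1 pool other than OGT_SCKO 1 (0.0801 to 0.153).

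The chondroitin and dermatan sulfate enzymes work on the same linker. In this list 3 of 16 genes were higher and 0 lower, against 11.2% and 12.1% of all genes. Chsy3, a chondroitin synthase, was 2.79-fold higher, at −3.06 ± 0.35 in OGT_SCKO pools and −4.54 ± 0.09 in Ctrl pools (limma adjusted p = 0.00291; 0.0946 within slide 1). Chst11, a chondroitin 4-O-sulfotransferase, was 2.06-fold higher (limma adjusted p = 0.00349) and did not pass with normexp (0.0621). It was above background on 2 of 3 Ctrl arrays, so it entered the test only through its OGT_SCKO arrays. Within slide 1, with Ctrl 2 as the sole Ctrl pool, its log2 fold change was 1.17. Chpf2, a chondroitin polymerising factor, was 1.51-fold higher (limma adjusted p = 0.0252) and lost its call with slide as a block (0.201) or without Ctrl 1, 2 or 3 or OGT_SCKO 3 (0.0534 to 0.101).

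Other proteoglycan cores had 6 of 20 tested genes higher and 4 lower, against 11.2% and 12.1% of all genes. Spock3 was not above background. Cspg5, a chondroitin sulfate core of neural tissue, was 2.93-fold higher, at 1.90 ± 0.06 in OGT_SCKO pools and 0.35 ± 0.14 in Ctrl pools (limma adjusted p = 0.000435). The small leucine-rich cores Ogn and Fmod were 2.70-fold lower (limma adjusted p = 0.00104) and 2.30-fold lower (0.00355; 0.0521 within slide 1). Col18a1, a basement membrane collagen that carries heparan sulfate, was 1.76-fold higher, at 1.79 ± 0.18 in OGT_SCKO pools and 0.97 ± 0.12 in Ctrl pools (limma adjusted p = 0.00749; 0.133 within slide 1).

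Among 13 partners of syndecans, glypicans and agrin, 4 were higher and 0 lower, against 11.2% and 12.1% of all genes. The list median log2 fold change was 0.35, against −0.07 for all genes. Lrp4, the receptor for agrin, was 1.80-fold higher, at 0.40 ± 0.15 in OGT_SCKO pools and −0.45 ± 0.07 in Ctrl pools (limma adjusted p = 0.00425; 0.0635 with slide as a block). Musk was 2.46-fold higher (limma adjusted p = 0.0496). It was above background on 2 of 3 Ctrl arrays, so it entered the test only through its OGT_SCKO arrays. Musk did not pass without Ctrl 2 (0.111), Ctrl 3 (0.139), OGT_SCKO 2 (0.0975) or OGT_SCKO 3 (0.125), or with slide as a random block (0.051). Within slide 1, with Ctrl 2 as the sole Ctrl pool, its log2 fold change was 1.98. Col5a1, a type V collagen chain, and Sdcbp2, a relative of the syndecan adaptor syntenin, were 1.32-fold (limma adjusted p = 0.0416) and 1.46-fold higher (0.0446). With slide as a block Col5a1 (0.25) and Sdcbp2 (0.0589) did not pass, and with normexp they were at 0.0643 and 0.125. Leaving out any 1 pool but OGT_SCKO 2 ended the Col5a1 call (0.068 to 0.138), and leaving out Ctrl 2, Ctrl 3, OGT_SCKO 2 or OGT_SCKO 3 ended that of Sdcbp2 (0.084 to 0.127).

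**Figure D4:**
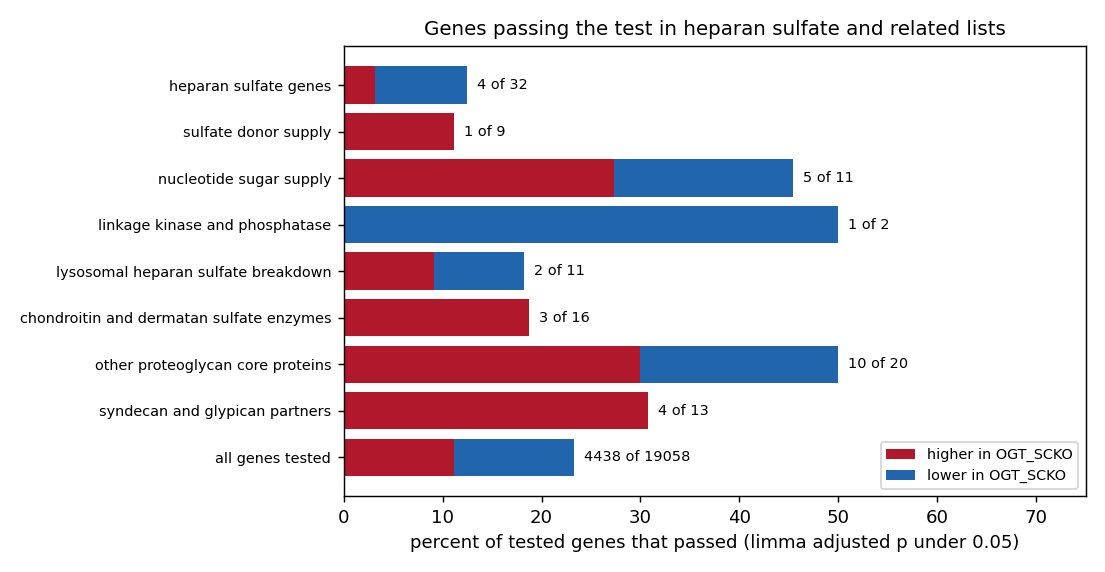
The horizontal axis gives the percent of tested genes in each list that passed (limma adjusted p under 0.05), higher and lower in OGT_SCKO stacked, with the counts at the bar ends. The heparan sulfate bar stands at 4 of 32 and the bar of all genes at 4438 of 19058.

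Markers of cells of the nerve are given as the summed linear level of each list, by its range over pools. The unit is the 75th percentile of the array, and the brightest probes weigh most in a sum. Of all genes tested, 11.2% were higher and 12.1% lower. Schwann cell markers summed to 291 to 467 in OGT_SCKO pools and 455 to 602 in Ctrl pools, overlapping ranges, with 2 of 8 lower. Perineurial markers summed to 33.2 to 40.3 in OGT_SCKO pools and 49.3 to 66.8 in Ctrl pools, with 3 of 7 lower, and endothelial markers to 9.11 to 11.9 in OGT_SCKO pools and 16.0 to 17.9 in Ctrl pools, with 1 of 7 lower. Adipocyte markers summed to 0.245 to 1.89 in OGT_SCKO pools and 2.60 to 14.6 in Ctrl pools, with 4 of 6 lower, and skeletal muscle markers to 0.362 to 0.521 in OGT_SCKO pools and 1.46 to 1.76 in Ctrl pools, with 4 of 5 lower. Of the adipocyte genes that passed, Cidec and Adipoq were above background on 1 OGT_SCKO array each and Retn on 2. Cidec, Adipoq and Retn thus entered the test only through their Ctrl arrays. Mast cell markers summed to 6.71 to 11.8 in OGT_SCKO pools and 2.56 to 5.84 in Ctrl pools, with 2 of 6 higher. The defining genes Lep (adipocyte), Myh1 (skeletal muscle) and Ms4a2 (mast cell) were above background on no array. In the remaining lists, 1 of 7 fibroblast and 1 of 5 neuron genes were lower, 1 of 6 mural genes was higher and 1 lower, 1 of 4 T and NK cell genes was higher, and 0 of 7 macrophage and 0 of 3 erythroid genes passed. The T and NK cell gene, Klrd1, was above background on 3 OGT_SCKO and 0 Ctrl arrays. Klrd1 entered the test only through its OGT_SCKO arrays. The part of these differences in the heparan sulfate values was not tested.

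**Figure D5:**
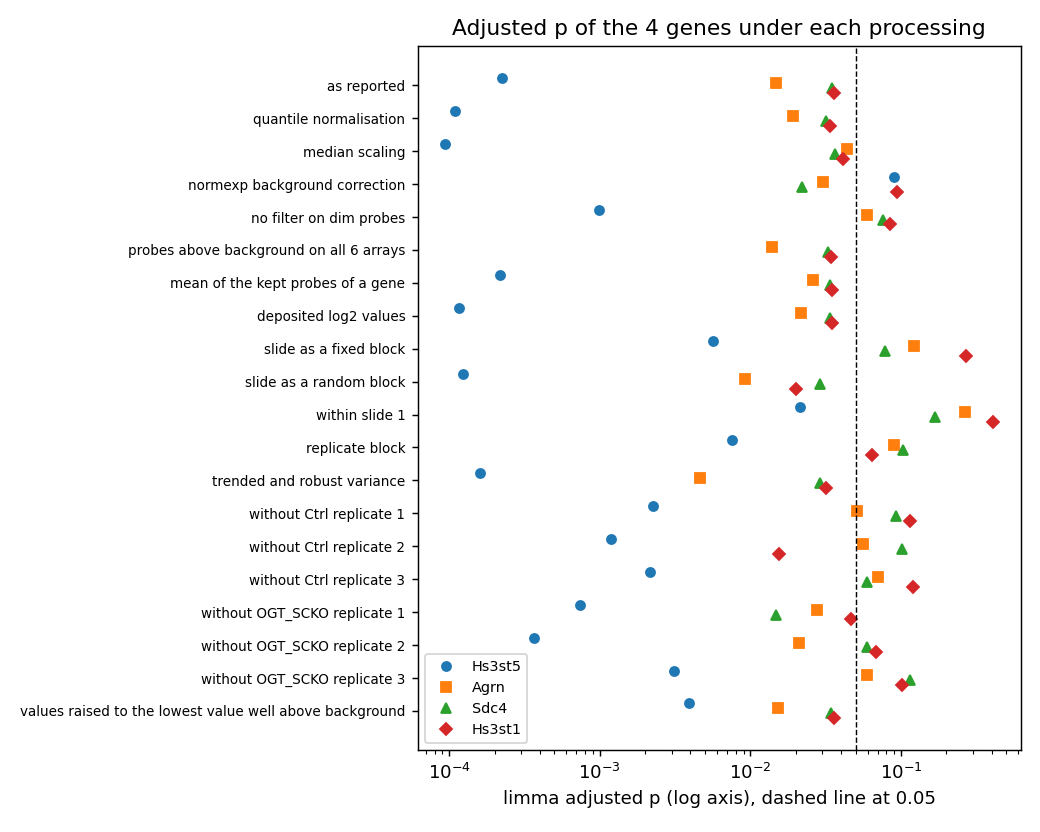
The horizontal axis is the limma adjusted p on a log axis with a dashed line at 0.05, rows are the values as reported and the 19 alternatives, and symbols mark the 4 genes that passed. Hs3st5 has a value in 18 of the 19 alternatives, since it was not tested where probes had to be above background on all 6 arrays, and among the 18 it lies right of the line with normexp (0.0901). Agrn, Sdc4 and Hs3st1 cross the line under several alternatives, slide as a fixed block and slide 1 alone among them.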

How the data were processed

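Total RNA of sciatic nerves was labelled with Cy5 and hybridised to Agilent mouse arrays, per the labels' protocols, and the deposited scanner files hold red-channel intensity values extracted with Agilent Feature Extraction 11.5.1.1, per the submitters' processing notes. The processed signal is a background-subtracted intensity, per the file headers. A deposited table of log2 values had the same median (9.13) in each column and correlated at 0.999 with quantile-normalised log2 signals computed here. How that table was scaled beyond this, no source used here states, and it served as an alternative.

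Control spots and outlier-flagged spots were left out (40 probes lost a value on at least 1 array; 0 spots were saturated). Spots of a probe were averaged, and log2 processed signal minus the 75th percentile of the array was used. A probe counted as well above background where at least 0.5 of its spots were, and it was kept where this held on all arrays of a group. This kept 24287 probes, and the kept probe with the highest mean stood for each of 19058 genes. Groups were compared with limma 3.58.1 in R 4.3.3 (lmFit and eBayes, no covariate), adjusted by Benjamini-Hochberg over all genes tested, with a threshold of 0.05. Of the 58 member probes, 53 were matched to a RefSeq accession, and none had a different current symbol. Where a gene was above background on no array of a group, the fold is set against a floor and is not a strict bound. It was computed from the mean of the higher of the array's lowest well-above-background signal and the gene's own. With 6 arrays, their number sets the precision. The limma p-values rest on the spread between independent pools, with the variance of each gene drawn toward that of all genes tested.

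Values in every pool are given for members that passed and for the 12 others with the smallest p, and values are given for at most 4 genes of each related list, those with the smallest p, except 1 gene that is not reported here. The members and lists were chosen with earlier results of these data known. Alternatives covered scaling, normexp (offset 50), the filter on dim probes, the choice of probe, the deposited values, slide, replicate number as a block, the variance model, leaving out each pool, and, chosen after seeing the data, raising dim values to the lowest well-above-background value. The main fit was also run on simulated data with independent noise for each gene and no slide effect. That simulation cannot show how slide or differences shared by the genes of a pool move the calls.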

Additional observations from a re-analysis of the deposited data

How the results depend on the processing

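Over 32 members and 19 alternatives, 607 values could be computed; 557 kept direction and side of the threshold, 27 lost a call, 4 gained one and 19 changed sign. Members higher (1) numbered 2 with quantile normalisation and with the deposited values, and 0 without a filter on dim probes, with slide as a fixed block, within slide 1 and with the replicate block. Members lower (3) numbered 1 with normexp, without a filter, with slide as a fixed block, within slide 1 and with the replicate block. Over leave-one-out fits, members higher ranged between 0 and 1 and members lower between 1 and 5. All genes higher (2126) numbered 1322 without a filter, 682 with slide as a fixed block, 283 within slide 1 and 793 with the replicate block, and 1023 to 2248 leaving out 1 pool. All genes lower (2312) numbered 1224 with normexp, 1307 without a filter, 543 with slide as a fixed block, 123 within slide 1 and 682 with the replicate block, and 951 to 3382 leaving out 1 pool. With no filter 30323 genes were tested, against 19058, and leave-one-out and slide 1 fits held fewer samples; the cause of the other moves was not tested. The higher share of calls was 47.9%, 52.3% with quantile normalisation, 52.5% with median scaling, 55.0% with normexp and 69.7% within slide 1. With slide as a random block (estimated correlation −0.14) 5237 genes and 4 members passed.

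Pools sharing a replicate number correlated at −0.27, −0.53 and 0.06 in their deviations from the group mean. Such deviations cancel within a group, so these values cannot show whether the pools share more than a number. With the replicate block 1475 genes passed. Agrn (limma adjusted p = 0.0891), Sdc4 (0.103) and Hs3st1 (0.0645) did not pass with it, while Hs3st5 did (0.00751). From the related lists, Chpf2, Col18a1, Col5a1, Fam20b, Musk, Naglu, Sdcbp2, Slc35b2, Slc35b4, Slc35d2 and Uap1l1 also lost their calls with it. Their limma adjusted p was 0.0592 to 0.162.

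Without a filter, Agrn (0.0593), Sdc4 (0.0758) and Hs3st1 (0.0844) did not pass, by limma adjusted p over more genes. Chpf2, Col5a1, Fam20b, Musk, Naglu, Sdcbp2, Slc35b2, Slc35d2 and Uap1l1 of the related lists did not pass either (0.0638 to 0.124). Signs turned for genes that never passed: Extl3 was 0.011 with quantile normalisation, 0.022 with median scaling, 0.0087 with the deposited values, and 0.011 with slide as a fixed block and within slide 1; Hspg2 was 0.23 with quantile normalisation, 0.10 as the mean of its probes and 0.24 with the deposited values; B3gat3 was 0.015 with median scaling. Sdc3 was −0.025 with normexp and −0.0091 with slide as a random block, and Sdc1 −0.014 with slide as a fixed block and within slide 1. Leaving out 1 pool, Hspg2 ranged between −0.27 and 0.13, B3gat3 between −0.081 and 0.0062, Sdc3 between −0.10 and 0.075, and Ext2 between −0.0041 and 0.41. Signal over background limits Hs3st5, which is bounded on the OGT_SCKO side, and the 10 members not tested.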
